A study of Mus musculus with 12 samples.

Results

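The genes described here are 41 mouse genes of DNA replication and mitosis, followed in bulk RNA-seq of bone marrow neutrophils that were labelled Control or Runx1KO and kept with vehicle or with LPS, a bacterial cell wall component sensed by neutrophils. They were chosen by symbol and known function, with no threshold on a measured value, although earlier results of these data were known when the list was drawn up. They are 41 of the 37310 genes of the count table. By role they comprise 10 genes of replication licensing and the helicase, 5 of DNA synthesis and nucleotide supply, 5 G1/S cyclins and transcription factors, 7 mitotic cyclins and kinases, 4 genes of the mitotic checkpoint and the anaphase-promoting complex, and 10 of the spindle, centromere and chromosome structure. All 41 were found, each as 1 row, and all 41 passed the filter on low counts. Their summed counts over the 12 libraries ran from 338 to 15574 reads, and the lowest count of any of them in any library was 18.

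Neutrophils were sorted from crushed hind limb bones of C57BL/6 mice as CD11b+, Ly6G+, Siglec F- and F4/80- cells, and then received either vehicle or LPS at 100 ng/mL during an incubation of 2 h. The 4 groups were Control with vehicle, Control with LPS, Runx1KO with vehicle and Runx1KO with LPS, with 3 libraries each. The series' design text describes the Control sample as LKS- cells of marrow pooled from a Runx1f/f mouse and a Runx1f/- mouse, the second of which has 1 Runx1 allele mutated in the germ line, whereas the sample labels describe sorted neutrophils. The deleted allele and the Cre driver of the Runx1KO mice, their sex and their age are not given. No label says that the 3 libraries within a group represent different mice, and the p-values thus cover a spread that may be technical.

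Before S phase, the licensing factors Cdc6 and Cdt1 load the MCM2-7 complex onto replication origins, and Cdc45 and GINS turn it into the active helicase. E2F transcription factors drive the genes of replication at the G1/S border, and Foxm1 with its partners drives the later genes of mitosis, in which cyclin B and Cdk1 start division and Cdc20 with the anaphase-promoting complex ends it. In bone marrow, granulocyte precursors divide, and neutrophils leave the cell cycle as they mature, so transcripts of these genes in a neutrophil preparation are usually taken to mark its youngest cells.

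Upstream sequences are shown for 4 of the genes, since replication genes and mitosis genes are known for different promoter elements and both classes are compared below. The sequences are the 250 bases before the transcription start in RefSeq on GRCm38.p6, 5′ to 3′ on the strand of the gene. Capitals mark matches, on either strand, to 3 motifs: TTTNGCGC, an E2F-type sequence, TTTGAA, the core of the cell cycle homology region of mitosis genes, and CCAAT, the NF-Y box. Mcm3 and Mcm5 stand for the replication helicase, and Ccnb2 (cyclin B2) and Cdk1 for mitotic entry. The Mcm3 sequence lies at chr1:20820313-20820562 on the minus strand, that of Mcm5 at chr8:75109259-75109508 on the plus strand, that of Ccnb2 at chr9:70421555-70421804 on the minus strand and that of Cdk1 at chr10:69352913-69353162 on the minus strand.
Mcm3: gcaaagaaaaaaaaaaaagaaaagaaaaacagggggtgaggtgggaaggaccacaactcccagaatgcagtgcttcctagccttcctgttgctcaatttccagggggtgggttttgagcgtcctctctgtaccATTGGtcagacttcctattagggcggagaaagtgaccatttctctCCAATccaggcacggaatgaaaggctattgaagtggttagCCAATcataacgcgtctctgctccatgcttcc
Mcm5: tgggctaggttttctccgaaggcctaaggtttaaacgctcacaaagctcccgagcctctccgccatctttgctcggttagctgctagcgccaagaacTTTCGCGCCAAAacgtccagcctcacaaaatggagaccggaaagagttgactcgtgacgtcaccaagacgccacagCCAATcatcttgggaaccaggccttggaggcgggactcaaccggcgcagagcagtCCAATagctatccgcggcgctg
Ccnb2: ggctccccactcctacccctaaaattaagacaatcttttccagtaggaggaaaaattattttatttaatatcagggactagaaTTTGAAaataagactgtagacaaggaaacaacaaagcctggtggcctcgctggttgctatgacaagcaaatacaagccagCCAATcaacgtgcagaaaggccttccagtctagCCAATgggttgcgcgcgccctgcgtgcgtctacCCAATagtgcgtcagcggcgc
Cdk1: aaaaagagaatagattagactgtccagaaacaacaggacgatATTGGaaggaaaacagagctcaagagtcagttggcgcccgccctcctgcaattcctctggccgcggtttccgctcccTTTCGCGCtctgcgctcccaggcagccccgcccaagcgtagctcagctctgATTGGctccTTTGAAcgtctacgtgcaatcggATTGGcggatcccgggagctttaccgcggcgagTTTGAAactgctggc
The Mcm5 sequence holds overlapping TTTNGCGC matches on both strands. The Ccnb2 sequence shown holds TTTGAA with 3 CCAAT boxes downstream of it. A further TTTGAA match of Ccnb2 lies past the start, outside the bases shown and downstream of these boxes. Which of these matches acts was not tested. Cdk1 carries all 3 kinds of match.

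A RefSeq window was matched for 33 of the 41 genes (34 windows, since Mcm7 has 2 starts), and each window runs from 250 bases before to 50 bases after the start. Ccna2, Mcm4, Tpx2, Foxm1, Gins2, Ccne2, Aurkb and Kif20a had no window. TTTGAA was found on either strand in 16 of the 34 windows (47.1%), against 17.9% of all 32851 windows of that length, and in 13 of the 17 windows of mitosis genes against 2 of the 14 windows of replication genes. CCAAT was found in 27 of the 34 windows (79.4%), against 37.4% of all windows. TTTNGCGC was found in 6 of the 34 windows (17.6%), against 1.38% of all windows, and 5 of these 6 belong to replication genes. A further E2F-type sequence, TTCCCGCC, was found in 2 of the 34 windows (5.88%), against 2.19% of all windows. These matches describe the sequences and are not binding sites.

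Total counts ran from 19023610 to 26225169 reads per library. The unit of level is CPM, a count divided by its library total and scaled by trimmed mean of M-values (TMM), whose factors lay between 0.895 and 1.20 except in Runx1KO LPS library 3, at 0.699. That library also had the highest level of Adgre1, the gene of the F4/80 antigen on which cells were sorted out, at 1220 CPM against 15.5 to 318 CPM in the other 11 libraries. Runx1 itself stood at 36.8, 56.2 and 38.7 CPM in the Control vehicle libraries and at 60.5, 68.4 and 75.4 CPM in those labelled Runx1KO, and at 32.3, 50.9 and 26.1 CPM against 58.3, 68.6 and 43.7 CPM with LPS. Reads of the whole gene do not show the loss of part of it, so they check nothing about the deletion, and every direction below rests on the label Runx1KO. Of the antigens that the sort required, the genes Itgam (CD11b) and Ly6g had reads in every library, as had S100a8, a neutrophil gene that was not part of the sort.

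In neutrophils without LPS from Control mice, the members were expressed at low but measurable levels. Per kilobase of exon, the highest mean levels in Control vehicle libraries were those of Cdc20, the activator of the anaphase-promoting complex, at 14.7 CPM per kb, Rrm2, the regulated subunit of ribonucleotide reductase, at 13.3, and Ccnb2 at 12.6. Pcna, the sliding clamp of DNA polymerases, followed at 12.2 and Ube2c, the ubiquitin-conjugating enzyme of the anaphase-promoting complex, at 10.1 CPM per kb. The lowest was Gins2, a GINS subunit, at 0.389 CPM per kb. Within a group the members varied less between libraries than genes at large: the median coefficient of variation was 15.1% over the members against 27.0% over all tested genes in Control vehicle, 16.3% against 27.8% in Control LPS, 23.6% against 32.0% in Runx1KO vehicle and 29.8% against 39.5% in Runx1KO LPS. The members and the tested genes were not matched for level, on which this measure depends.

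Summed over the 41 genes, the level was 752, 845 and 755 CPM in Control vehicle libraries 1, 2 and 3 and 819, 848 and 694 CPM in Control LPS. In the Runx1KO libraries it came to 709, 669 and 515 CPM under vehicle, then 770, 629 and 514 CPM under LPS. With vehicle, every Runx1KO library lay below every Control library, while with LPS the groups overlapped, since Runx1KO library 1 lay above Control library 3. The group means were 784 ± 52.8 CPM for Control and 631 ± 103 CPM for Runx1KO with vehicle, a ratio of 0.805, and 787 ± 81.8 and 638 ± 128 CPM with LPS, a ratio of 0.810 (SD, n = 3 each). In these bulk samples, fewer dividing cells and less RNA of these genes per cell cannot be told apart.

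**Figure D1:**
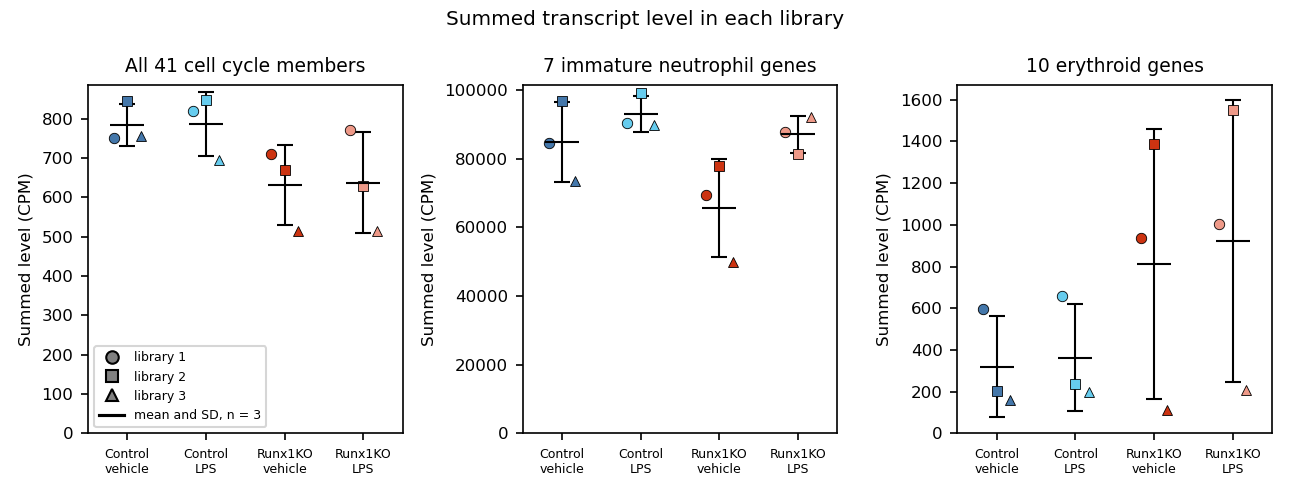
Summed level of the 41 genes, of 7 immature neutrophil genes and of 10 erythroid genes in each of the 12 libraries (CPM, TMM-scaled), by group, with group means and SD over 3 libraries; marker shapes give the library number. In the left panel the Runx1KO vehicle libraries lie between 515 and 709 CPM and the Control vehicle libraries between 752 and 845 CPM; the groups with LPS overlap.

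The first comparison asks whether LPS changed these genes in Control neutrophils. None of the 41 members passed the test (a quasi-likelihood test in edgeR, with a threshold of 0.05 on p-values adjusted by Benjamini-Hochberg over all 12917 genes tested), where 0% of all tested genes passed. At an unadjusted p under 0.05 there were 0 members and 78 genes in all (0.604%), and DESeq2 and limma-voom also called 0 members. The members' median log2 fold change was 0.01, against -0.02 over all tested genes, with 22 positive and 19 negative values (53.7% of all tested genes were negative). Every LPS library lay above every vehicle library for Mcm5 and Aurka (2 of 41, against 2.84% of all tested genes) and below for Bub1 (1 of 41, against 2.32%). With scaling by library size alone, 36 of the 41 values were negative rather than 19, with a median of -0.11, while 71.1% of all tested genes were negative and their median moved from -0.02 to -0.14.

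By role, the log2 fold changes in Control with LPS lay close to 0. Among the licensing genes, 8 of 10 values were negative (median -0.13), with 0.11 for Mcm5, -0.25 for Mcm2, both subunits of the helicase, and -0.18 for Cdc6, the loading factor. In DNA synthesis, the values were -0.07 for Pcna, 0.11 for Rrm2 and 0.11 for Tyms, the thymidylate synthase. The widest value of the 41 was that of E2f1, the activator of G1/S transcription, with 12.3, 14.3 and 8.29 CPM in Control vehicle libraries and 13.9, 15.1 and 21.4 CPM in Control LPS libraries. E2f1 was higher in all 3 pairs of the same library number, but its groups overlapped, and its log2 fold change of 0.53 ± 0.35 (SE) had an adjusted p of 1 by edgeR. Ccne2, cyclin E2 of G1/S, stood at 0.01. The mitotic kinases and cyclins had a median of 0.08, with 0.15 for Ccnb2, 0.08 for Cdk1 and 0.03 for Plk1, the polo-like kinase of mitosis. Cdc20 and Ube2c were at 0.01 and 0.04. Of the spindle and chromosome genes, Birc5 (survivin, of the chromosomal passenger complex) was at 0.10, Kif11 (the spindle motor Eg5) at -0.06, Top2a (topoisomerase II alpha) at 0.02 and Mki67 (Ki-67) at 0.09. The other extremes were Cdc45 (0.16) and Aurka, the Aurora A kinase (0.15), at the top, and Gins2 (-0.30), Mcm2 and Foxm1 (-0.24) at the bottom. In this fit without a block, standard errors of the members lay between 0.19 and 0.45. Every value named here except that of E2f1 was smaller than its own standard error. With the library number as a block, Mcm2 also exceeded its standard error, at -0.26 ± 0.21 (SE). In that fit 0 members had an unadjusted p under 0.05 by edgeR.

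The second comparison asks the same of Runx1KO neutrophils. Again 0 of 41 members passed the test, where 0% of all 12917 genes passed, with 0 members and 676 genes (5.23%) at an unadjusted p under 0.05. DESeq2 and limma-voom called 0 members here as well. The median was -0.04, against 0.03 over all tested genes, with 20 positive and 21 negative values (47.4% of all tested genes were negative). Mcm7, a helicase subunit, had every LPS library (12.0, 17.2 and 13.1 CPM) below every vehicle library (17.3, 18.5 and 21.9 CPM), with a log2 fold change of -0.45 ± 0.22 (SE) and an adjusted p of 0.873 by edgeR. It was the only member with separate groups in either direction (1 of 41 below, against 3.2% of all tested genes, and 0 above, against 3.51%). With scaling by library size alone the median was -0.29 and 36 values were negative, while 72.6% of all tested genes were negative and their median moved from 0.03 to -0.28.

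Licensing genes accounted for 9 negative values of 10 in Runx1KO neutrophils with LPS (median -0.21), with -0.12 for Mcm5, -0.40 for Mcm2, -0.32 for Cdc6 and -0.43 for Cdt1, the other loading factor. Pcna had the highest value, 0.47 ± 0.45 (SE), on 51.7, 24.5 and 25.6 CPM in its LPS libraries against 37.4, 21.6 and 14.5 CPM in its vehicle libraries. Its library 1 stood far above libraries 2 and 3 in both groups, as it did in both Control groups. Pcna has processed copies whose reads the counting could split, and their part in its level was not tested. Rrm2 followed at 0.33 and Tyms was at 0.05. The G1/S regulators stood at 0.30 for E2f1 and -0.05 for Ccne2. Among mitosis genes the values were 0.01 for Ccnb2, 0.03 for Cdk1, 0.25 for Plk1, 0.07 for Cdc20, 0.17 for Ube2c, 0.27 for Birc5, 0.07 for Kif11, 0.06 for Top2a and 0.28 for Mki67. Cenpe, a kinetochore motor, was at 0.35 and Cenpa, the centromeric histone H3 variant, at -0.41, which were the remaining extremes. None of these values passed the test, with or without the library number as a block. With the block, the smallest unadjusted p-values of members by edgeR were 0.0276 for Pcna and 0.0411 for Mcm7. Both had an adjusted p of 0.555.

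The third comparison sets Runx1KO against Control neutrophils kept with vehicle, and here the members leaned to one side. The log2 fold change was negative for 39 of the 41 genes, against 49.7% of all tested genes, with a median of -0.39 against 0.00 over all tested genes. None of the 41 passed the test, where 0.952% of all 12917 genes passed, and the smallest adjusted p of a member was 0.299 by edgeR, for Tk1; DESeq2 and limma-voom called 0 members too. At an unadjusted p under 0.05 there were 3 members, all lower (7.32%, against 4.65% of all tested genes in that direction). With the library number as a block there were 8, all lower (19.5%, against 7.45% of all tested genes in that direction), and 0 members passed after adjustment. Every Runx1KO library lay below every Control library for 14 of the 41 genes (34.1%, against 7.82% of all tested genes) and above for 0 (against 5.42%). All 41 come from the same 6 libraries and are known to be regulated together, so they are not 41 independent observations. Without Runx1KO vehicle library 3 the median was -0.24, with 36 negative values.

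**Figure D2:**
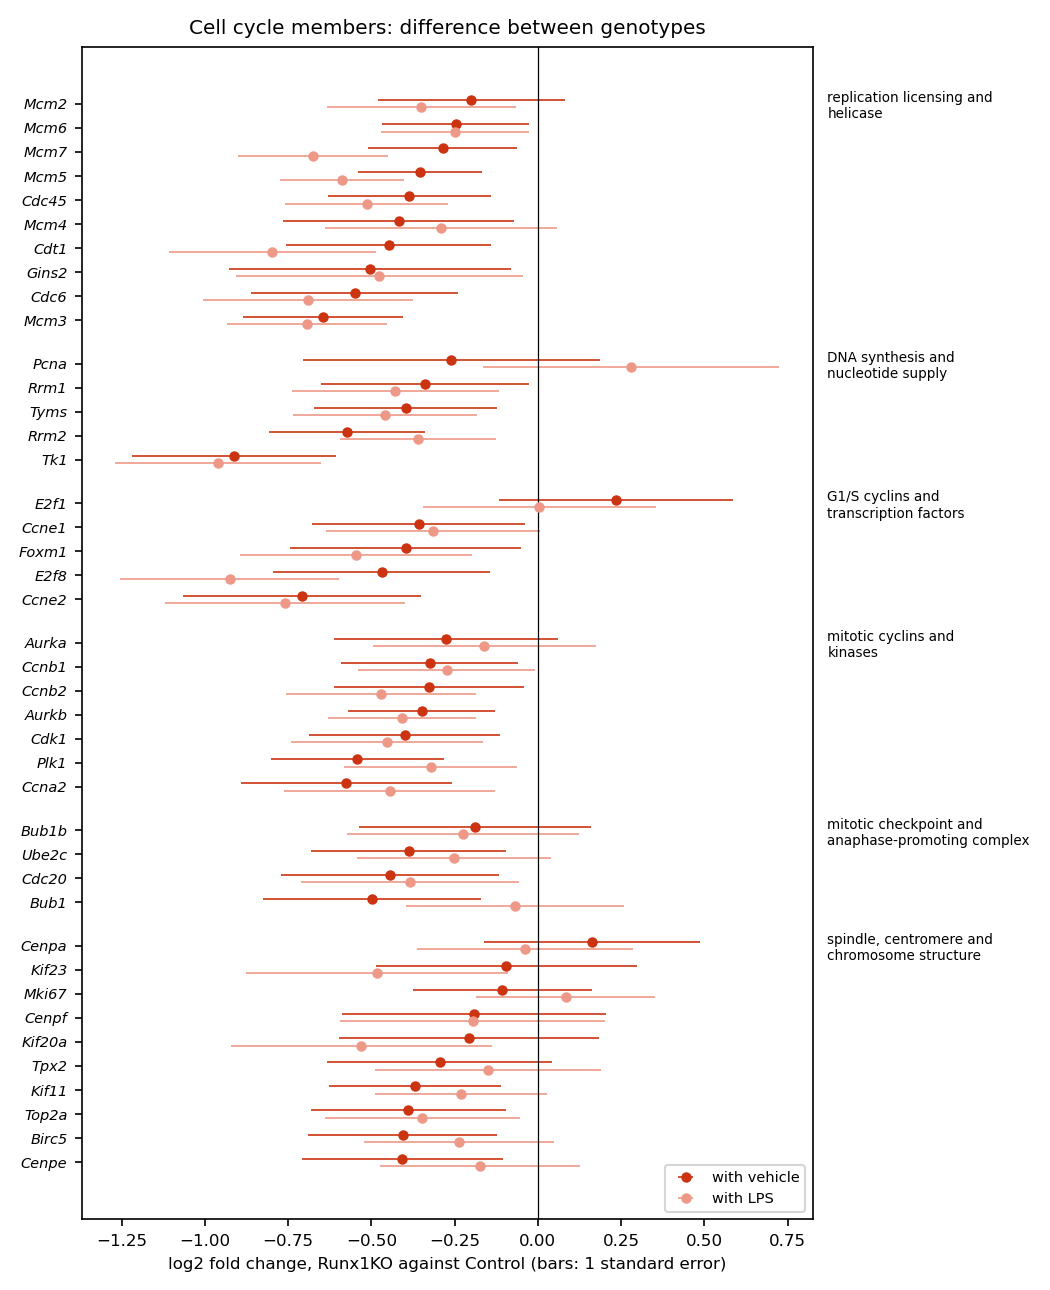
Log2 fold change of each of the 41 genes between Runx1KO and Control, with vehicle and with LPS, ordered by role, with standard errors of the edgeR fit. With vehicle 39 of the 41 values and with LPS 38 of the 41 lie below 0, and 0 of them passed the test.

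Of the licensing and helicase genes, 10 of 10 values were negative, with a median of -0.40, and 6 of the 10 genes had groups without overlap. Mcm3, a subunit of the helicase ring (ENSMUSG00000041859.9), stood at 21.2, 20.5 and 25.6 CPM in Control vehicle libraries and at 18.98, 13.2 and 10.9 CPM in Runx1KO vehicle libraries. All 3 Runx1KO values lay below all 3 Control values, although Runx1KO library 1 came close to Control library 2. Its log2 fold change was -0.65 ± 0.24 (SE), with an unadjusted p of 0.0199 and an adjusted p of 0.399 by edgeR. Mcm5 (ENSMUSG00000005410.4) stood at 20.2, 22.0 and 21.2 CPM in Control and at 17.7, 14.8 and 16.996 CPM in Runx1KO, so that the groups were apart by more than the range within Control. Its log2 fold change was -0.35 ± 0.19 (SE). Cdt1 stood at 9.49, 10.7 and 9.52 CPM in Control and at 6.68, 6.83 and 8.27 CPM in Runx1KO, again without overlap, and Mcm4, Mcm6 and Cdc45 completed the 6. Cdc6, at -0.55, and Mcm2, at -0.20, had overlapping groups.

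In DNA synthesis and nucleotide supply, 5 of 5 values were negative (median -0.40), and the thymidine kinase Tk1 of the salvage pathway had the lowest value of the 41. Tk1 stood at 12.1, 7.95 and 8.16 CPM in Control vehicle libraries and at 4.33, 5.94 and 4.73 CPM in Runx1KO vehicle libraries. Its groups did not overlap, its log2 fold change was -0.91 ± 0.31 (SE), and its unadjusted p was 0.0118. Tk1 shares exon bases with Afmid on the opposite strand, as 13 of the 41 genes do with some other gene, and without a known strand setting reads of such genes cannot be told apart. Rrm2 stood at 35.5, 40.6 and 34.6 CPM in Control and at 27.0, 29.8 and 17.7 CPM in Runx1KO, without overlap, at -0.57 ± 0.24 (SE). Tyms was at -0.40 and Pcna at -0.26, both with overlapping groups.

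The G1/S group held both an extreme on the low side and the highest value. Ccne2 stood at 6.59, 8.51 and 10.6 CPM in Control and at 5.14, 6.12 and 4.49 CPM in Runx1KO, without overlap, with a log2 fold change of -0.71 ± 0.36 (SE) and an adjusted p of 0.740 by edgeR. E2f1 went the other way, at 19.02, 8.64 and 13.4 CPM in Runx1KO against 12.3, 14.3 and 8.29 CPM in Control, with overlapping groups and a value of 0.23 ± 0.35 (SE). E2f8, an E2F family repressor, was at -0.47 and Foxm1 at -0.40. Ccne2 shares exon bases with Ints8, and Foxm1 with Tex52.

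Of the 7 mitotic cyclins and kinases, 7 values were negative (median -0.35) and 5 genes were without overlap, namely Ccna2, Ccnb1, Cdk1, Plk1 and Aurkb. Ccna2, cyclin A2 of S phase and mitosis, stood at 31.0, 37.6 and 28.9 CPM in Control and at 23.7, 26.6 and 15.2 CPM in Runx1KO. Cdk1, the kinase that starts mitosis, stood at 23.3, 25.9 and 21.5 CPM in Control and at 19.8, 20.7 and 13.1 CPM in Runx1KO. Plk1 stood at 11.1, 15.1 and 10.6 CPM against 8.46, 8.29 and 8.52 CPM, the smallest coefficient of variation of any member in the Runx1KO vehicle group. In Ccna2 and Cdk1 the Runx1KO library 3 was far below the other 2, whereas in Plk1 all 3 lay together. Their log2 fold changes were -0.58 ± 0.32, -0.40 ± 0.29 and -0.54 ± 0.26 (SE), and that of Ccnb2 was -0.33 ± 0.29 (SE).

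The checkpoint and spindle genes had negative values too, 4 of 4 (median -0.42) and 9 of 10 (median -0.25). Separate groups were seen for 0 of 4 and 0 of 10, where 7.82% of all tested genes lay below and 5.42% above. With so few genes, 0 is near these shares, and a difference between the roles was not tested. Cdc20 was at -0.44, Ube2c at -0.39, Birc5 at -0.41, Kif11 at -0.37 and Top2a at -0.39. Top2a stood at 44.9, 55.5 and 47.3 CPM in Control and at 46.0, 43.7 and 23.1 CPM in Runx1KO, so that only Runx1KO library 3 was clear of the Control range by a wide margin. Mki67, the usual histological marker of dividing cells, stood at 57.4, 60.4 and 51.4 CPM in Control and at 62.7, 61.2 and 33.2 CPM in Runx1KO, with a value of -0.11 ± 0.27 (SE). Its libraries 1 and 2 in Runx1KO were higher than all 3 Control libraries, and library 3 was the lowest of the 6. Cenpa, at 0.16, and Kif23, a motor of the cytokinetic midzone, at -0.09, were the other highest values of the comparison.

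The fourth comparison sets the same genotypes side by side after LPS, in 6 other libraries, and the lean was of similar size. The log2 fold change was negative for 38 of the 41 genes, against 47.4% of all tested genes, with a median of -0.36 against 0.03 over all tested genes. None passed the test, where 0.921% of all 12917 genes passed, and the smallest adjusted p was 0.248 by edgeR, for Mcm5; DESeq2 and limma-voom called 0 members too. At an unadjusted p under 0.05 there were 7 members, all lower (17.1%, against 4.79% of all tested genes in that direction). With the library number as a block there were 14, all lower (34.1%, against 7.7% of all tested genes in that direction), and again 0 passed after adjustment, the smallest adjusted p by edgeR being 0.0845. Every Runx1KO library lay below every Control library for 10 of the 41 genes (24.4%, against 6.76% of all tested genes) and above for 0 (against 6.51%). The median was -0.60 without Runx1KO LPS library 1 and -0.19 without Runx1KO LPS library 3, the library with the low scaling factor, with 40 and 34 negative values.

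Of the 10 genes without overlap after LPS, 6 belonged to licensing and the helicase, whose median was -0.55. Mcm5 stood at 22.0, 23.8 and 22.5 CPM in Control LPS libraries and at 15.7, 15.3 and 14.5 CPM in Runx1KO LPS libraries. Both groups were tight and far apart, and the log2 fold change was -0.59 ± 0.19 (SE). Mcm3 stood at 20.3, 22.1 and 19.96 CPM in Control and at 14.4, 12.1 and 12.0 CPM in Runx1KO, also tight and apart, at -0.69 ± 0.24 (SE) with an adjusted p of 0.310 by edgeR. Mcm7 stood at 24.4, 21.7 and 21.5 CPM against 12.0, 17.2 and 13.1 CPM, and Cdt1 at 11.02, 8.80 and 8.24 CPM against 3.00, 7.37 and 5.79 CPM. Mcm7 was at -0.67 ± 0.22 and Cdt1 at -0.80 ± 0.31 (SE), among the lowest values of the 41. Mcm7 shares exon bases with Ap4m1 and Cops6 on the opposite strand and with the microRNA genes Mir25 and Mir93, while Mcm3, Mcm5 and Cdt1 overlap no other gene. Cdc6 was at -0.69 and Cdc45 at -0.51, without overlap, and Mcm2 at -0.35, with overlap.

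**Figure D3:**
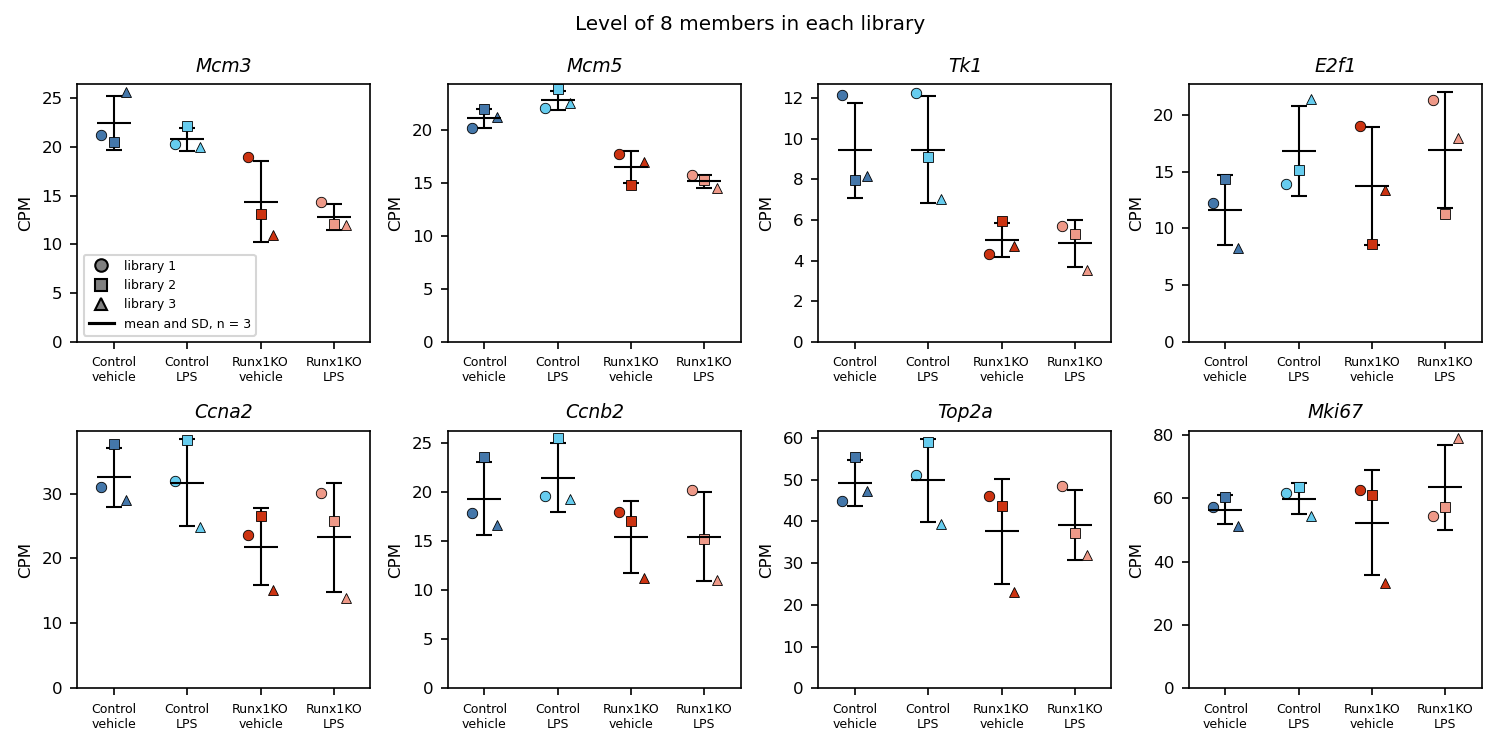
Level of 8 members in each library (CPM, TMM-scaled), by group, with group means and SD over 3 libraries. The Mcm5 values of the Runx1KO LPS libraries, from 14.5 to 15.7 CPM, lie apart from the 22.0 to 23.8 CPM of the Control LPS libraries.

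Tk1 was again the lowest of the 41, at 12.2, 9.11 and 7.01 CPM in Control LPS and 5.69, 5.30 and 3.54 CPM in Runx1KO LPS, without overlap and with a log2 fold change of -0.96 ± 0.31 (SE). E2f8 stood at 8.12, 11.7 and 9.74 CPM in Control and at 7.19, 3.46 and 4.89 CPM in Runx1KO, at -0.93 ± 0.33 (SE). Their adjusted p-values by edgeR were 0.254 and 0.326, and E2f8 shares exon bases with a predicted gene on the opposite strand. Tyms, at -0.46, and Aurkb, the Aurora B kinase, at -0.41, completed the 10. Among the others, Rrm2 was at -0.36, Ccne2 at -0.76, Ccnb2 at -0.47, Cdk1 at -0.45, Plk1 at -0.32, Cdc20 at -0.38, Ube2c at -0.25, Birc5 at -0.24, Kif11 at -0.23 and Top2a at -0.35. The 3 genes with values above 0 were Pcna (0.28), Mki67 (0.08) and E2f1 (0.00). Mki67 stood at 61.8, 63.8 and 54.4 CPM in Control and at 54.6, 57.2 and 79.0 CPM in Runx1KO, where library 3, the lowest of the group for most members, was the highest for Mki67.

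Across both genotype comparisons, 37 of the 41 values were negative in both, against 33.8% of all tested genes. Groups were separate in both for 6 of the 41 genes, namely Mcm3, Mcm5, Cdt1, Cdc45, Tk1 and Aurkb. These are 42.9% of the 14 genes with vehicle and 60.0% of the 10 genes with LPS. Of all tested genes, 3.13% lay below in both comparisons, out of 7.82% with vehicle and 6.76% with LPS. Of these 6, Mcm3, Mcm5, Cdt1 and Aurkb share no exon bases with another gene. The vehicle and LPS comparisons use different libraries, but same-numbered libraries deviated together across groups, so the comparisons are not independent.

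The fifth comparison is the difference between the LPS responses of the genotypes, and 0 of 41 members passed it, where 0% of all tested genes passed, with 0 members and 77 genes (0.596%) at an unadjusted p under 0.05; DESeq2 and limma-voom also called 0 members. The median difference, Runx1KO minus Control, was -0.04 on the log2 scale, against 0.05 over all tested genes, with 18 positive and 23 negative values (44.9% of all tested genes were negative). With scaling by library size alone the median was -0.19 and 31 values were negative. In that fit 65.2% of all tested genes were negative, and their median was -0.15. For the helicase and its loader the differences were -0.23 for Mcm5, -0.15 for Mcm2 and -0.14 for Cdc6, and for DNA synthesis 0.54 for Pcna, 0.21 for Rrm2 and -0.06 for Tyms. E2f1 was at -0.23 and Ccne2 at -0.05. In mitosis the differences were -0.14 for Ccnb2, -0.05 for Cdk1, 0.22 for Plk1, 0.06 for Cdc20, 0.14 for Ube2c, 0.17 for Birc5, 0.14 for Kif11, 0.04 for Top2a and 0.19 for Mki67. Besides Pcna, the extremes were the checkpoint kinase Bub1 (0.43) and Cenpe (0.23), and E2f8 (-0.46), Kif23 (-0.39) and Mcm7 (-0.39). Standard errors lay between 0.26 and 0.63 in this fit without a block. With the library number as a block, the difference of Pcna was 0.54 ± 0.26 (SE), with an unadjusted p of 0.0655 by edgeR. In that fit 0 members had an unadjusted p under 0.05.

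The size of the genotype difference was not the same in each library number. With vehicle, the median difference between Runx1KO and Control libraries of the same number was -0.08 for number 1, -0.44 for number 2 and -0.63 for number 3 (log2 of CPM plus 0.5), with 26, 37 and 39 of the 41 genes lower. With LPS it was -0.11, -0.44 and -0.51, with 23, 38 and 39 of the 41 genes lower. All 3 pairs were lower for 23 genes with vehicle (56.1%, against 18.8% of all tested genes) and for 21 with LPS (51.2%, against 19% of all tested genes). For the licensing genes the medians were -0.25, -0.55 and -0.47 with vehicle and -0.40, -0.28 and -0.63 with LPS in pairs 1, 2 and 3, with 10, 9 and 10 and then 9, 10 and 10 of the 10 genes lower. For DNA synthesis and nucleotide supply, 4, 4 and 5 of the 5 genes were lower with vehicle and 4, 4 and 4 with LPS, with medians of -0.30, -0.44 and -0.73 and of -0.58, -0.37 and -0.28. For the mitotic cyclins and kinases the medians of pair 1 were -0.06 with vehicle and -0.08 with LPS, and those of pair 3 were -0.54 and -0.78. Library 3 was the lowest of its group for 27 of the 41 genes in Runx1KO vehicle (against 35.5% of all tested genes). It was the lowest for 29 in Runx1KO LPS (against 34.7%) and 32 in Control LPS (against 32.2%), but for 18 in Control vehicle (against 32.1%). Library 1 was the highest for 31 of the 41 genes in Runx1KO LPS (against 41.4% of all tested genes). The labels do not say what the library numbers stand for.

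**Figure D4:**
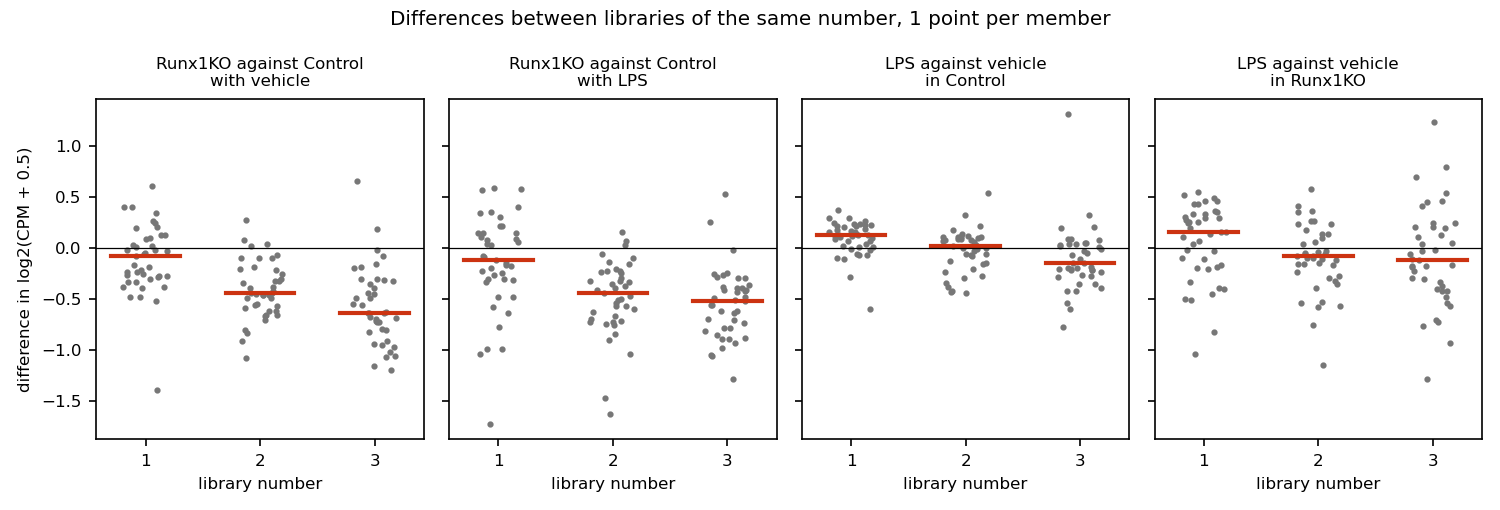
Differences between libraries of the same number for the 41 genes (log2 of CPM plus 0.5), between the genotypes in the 2 left panels and between LPS and vehicle in the 2 right panels, with 1 point per gene and bars at the medians. Between the genotypes the medians are -0.08, -0.44 and -0.63 with vehicle and -0.11, -0.44 and -0.51 with LPS for numbers 1, 2 and 3.

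Genes of the same pathways outside the 41 were counted in the same way. Of 30 other replication genes tested, 0 passed in any comparison, and 27 values were negative with vehicle and 27 with LPS between the genotypes (medians -0.38 and -0.46). Their smallest p was that of Uhrf1, which keeps DNA methylation through replication, at 12.6, 15.8 and 16.9 CPM in Control LPS and 8.56, 6.92 and 8.49 CPM in Runx1KO LPS, without overlap. Uhrf1 was at -0.92 ± 0.22 (SE) with LPS, with an adjusted p of 0.0908 by edgeR, and at -0.70 ± 0.22 (SE) with vehicle, with an adjusted p of 0.239. With the library number as a block it passed the test with LPS, and no other gene of the 3 pathway lists or of the 41 members passed in any comparison. Of 38 other mitosis genes tested out of 40 listed, 0 passed, with 38 negative values with vehicle and 32 with LPS (medians -0.37 and -0.32). The smallest p belonged to the kinetochore gene Spc24 with vehicle (-0.80) and to Ccnf, cyclin F, with LPS (-0.94). In the LPS comparisons the replication gene with the smallest p in Control was Rpa2, of the single-strand binding complex, at 0.76, or 0.32 without Control LPS library 3. In Runx1KO it was Pola2, a subunit of DNA polymerase alpha, at 3.28, 4.08 and 3.75 CPM in vehicle libraries and 3.17, 5.03 and 24.5 CPM in LPS libraries. Its log2 fold change of 1.55 rested on LPS library 3, the library with the low scaling factor and the high Adgre1 level, and was 0.15 without it. For mitosis it was Plk4, the centriole duplication kinase, at 0.79 in Control, or 0.50 without Control LPS library 2, and at 1.36 in Runx1KO. None of these passed the test.

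Genes that decide on cell cycle entry form the third list. Of 20 tested regulators of entry, CDK inhibitors and RB family genes out of 23 listed, 0 passed, and 13 values were negative with vehicle and 10 with LPS (49.7% and 47.4% of all tested genes), with medians of -0.14 and 0.01 against 0.00 and 0.03 over all tested genes. With vehicle 3 of the 20 had every Runx1KO library below every Control library (against 7.82% of all tested genes) and 1 above (against 5.42%). With LPS these counts were 0 (against 6.76%) and 1 (against 6.51%). Of the 30 other replication genes, 8 lay below with vehicle and 9 with LPS. Of the 38 other mitosis genes, 9 and 5 did, and 0 of either list lay above. Whether these counts differ from those of the 41 was not tested. The smallest p was that of Cdkn2b, the CDK inhibitor p15, at 0.0840, 0.160 and 0.0423 CPM in Control vehicle and 0.445, 0.310 and 0.526 CPM in Runx1KO vehicle. Its levels were very low and its groups did not overlap, with log2 fold changes of 2.10 ± 0.64 with vehicle and 2.12 ± 0.59 with LPS (SE) and adjusted p-values of 0.218 and 0.163 by edgeR. In Runx1KO neutrophils with LPS, the smallest p was that of the growth regulator Myc, at 2.62 ± 0.60 (SE) with an adjusted p of 0.873. In the difference of responses, Myc was at 1.79 (1.16 without Runx1KO LPS library 3), Chaf1a, a histone chaperone of replication, at -0.73 (-0.39 without Runx1KO vehicle library 1) and Pttg1, securin, at 0.55 (from 0.33 to 0.88 with a library left out), all with an adjusted p of 1 by edgeR.

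Markers of young neutrophils and of other marrow cells also differed between the libraries. A list of 7 marker genes of immature neutrophils, among them genes of secondary granules, was summed. The sum ran from 73456 to 96775 CPM in Control vehicle and from 49779 to 77759 CPM in Runx1KO vehicle. With LPS it ran from 89680 to 99138 against 81337 to 92258 CPM, and 0 of the 7 genes were called in either comparison. One of them, Fcnb, stood at 100.5, 82.4 and 52.5 CPM in Control vehicle and 44.8, 25.5 and 16.8 CPM in Runx1KO vehicle, and was called lower in both comparisons only with the library number as a block. Another list held 7 marker genes of neutrophil precursors, among them genes of primary granules. Its sums ran from 186 to 367 against 118 to 267 CPM with vehicle and from 186 to 274 against 157 to 194 CPM with LPS. In both comparisons 1 of the 7, Cd63, was called lower. Most of the 7 nevertheless had positive log2 fold changes, 4 with vehicle (median 0.36) and 5 with LPS (median 0.73), none of which passed the test. For 10 erythroid genes, whose cells also divide in marrow, the Control sums were 598, 204 and 160 CPM under vehicle and 657, 236 and 198 CPM under LPS, and the Runx1KO sums were 938, 1387 and 113 CPM under vehicle and 1005, 1552 and 210 CPM under LPS. The erythroid sum was thus lowest in library 3 of every group, as was the summed member level in 3 of the 4 groups. The highest library, however, was a different one for these sums in every group. Between the genotypes, 9 of the 10 erythroid log2 fold changes were positive with vehicle (median 1.37) and 10 with LPS (median 1.39), with 0 called. For 10 stem and progenitor genes the sums ran from 44.3 to 56.1 against 45.8 to 85.1 CPM with vehicle and from 40.6 to 59.7 against 38.3 to 103 CPM with LPS, with 0 called.

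In 4 of the lists of other marrow cells, genes were called between the genotypes. For 10 B lineage genes the summed levels ran from 21.9 to 45.5 against 10.5 to 15.2 CPM with vehicle and from 25.1 to 63.9 against 14.0 to 22.4 CPM with LPS, with 2 and 1 genes called lower, among them Ms4a1 in both comparisons, or 3 and 3 genes with the library number as a block. For 8 monocyte and macrophage genes they ran from 114 to 383 against 213 to 566 CPM with vehicle and from 112 to 524 against 163 to 1997 CPM with LPS, with 0 called. For 8 megakaryocyte and platelet genes they ran from 28.1 to 34.9 against 47.8 to 54.1 CPM with vehicle, with Itga2b, Pf4, Ppbp and Treml1 called higher, and from 30.6 to 35.0 against 41.8 to 56.4 CPM with LPS, with Itga2b and Treml1 called higher. With the library number as a block, 6 of these 8 were called higher with vehicle, and 4 higher and 1 lower with LPS. For 8 T and NK genes the sums ran from 35.1 to 54.3 against 5.42 to 10.3 CPM with vehicle and from 38.0 to 52.7 against 5.74 to 8.71 CPM with LPS. Of the 5 tested, 3 had positive log2 fold changes with vehicle (median 0.12) and 4 with LPS (median 0.33), with 0 called higher. Cd3d, a subunit of the T cell receptor complex, was called lower in both. Its level was 2.47, 3.06 and 1.68 CPM in Runx1KO vehicle. In Control vehicle it was 35.8, 32.4 and 47.4 CPM, which made up most of those sums. For 8 eosinophil, basophil and mast cell genes they ran from 11.9 to 40.5 against 8.78 to 27.9 CPM with vehicle and from 9.81 to 38.2 against 9.16 to 14.0 CPM with LPS, with Mcpt8 and Prss34, basophil proteases at 0 in all 6 Runx1KO libraries, called lower with vehicle and Prss34 with LPS, or 3 lower and 1 higher and then 2 lower with the block. In the lists of erythroid, granule and mature neutrophil genes no gene was at 0 in any library, while Meis1 and Spink2 of the progenitor list, Ms4a1 of the B lineage list, Cd3e, Cd3g, Cd4 and Klrb1c of the T and NK list, Epx, Mcpt8, Prss34 and Fcer1a of the eosinophil, basophil and mast cell list and Ppbp and Treml1 of the megakaryocyte list were among those at 0 in some. Ly6g, on which cells were gated, stood at 418, 418 and 381 CPM in Control vehicle and 106, 154 and 152 CPM in Runx1KO vehicle. Its adjusted p by edgeR was 0.0521 with vehicle, where it was called lower with the block, and 0.315 with LPS. It is 1 of 10 mature neutrophil genes, whose sums ran from 103686 to 123258 against 75128 to 108403 CPM with vehicle. With LPS the sums ran from 103707 to 127669 against 113357 to 130686 CPM. Of the 10 log2 fold changes, 2 were positive with vehicle (median -0.27) and 3 with LPS (median -0.36), with 0 called without the block. The part of these markers in the levels of the 41 genes was not tested.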

How the data were processed

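Bulk RNA-seq of 12 libraries in 4 groups of 3 was used as deposited: whole-number read counts per gene, not normalized. The submitters' processing notes name STAR 2.6.0a, the mouse build mm9 and featureCounts; neither annotation release nor strand setting is stated. Cells were sorted, incubated and given an ultra-low input library preparation, per the labels' protocols. Each column was matched to a sample title by its name, and 0 further columns were left out. Gene symbols were matched by identifier without version for 32620 of the 37310 genes.

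Genes were filtered with filterByExpr (12917 kept), scaled by TMM and fitted in 1 quasi-likelihood model of the 4 groups (edgeR 4.0.16, R 4.3.3) with 5 contrasts, and p-values were adjusted over all genes tested (Benjamini-Hochberg, threshold 0.05). Alternatives used DESeq2 1.42.0, limma 3.58.1, other scalings, no filter, the compared groups alone, the library number as a block, and left-out libraries. The code was tested on simulated data. The members and the gene lists were chosen with earlier results of these data known. Named were 17 representatives of the roles and, per comparison, the 3 highest and 3 lowest members, and in other lists every called gene or the gene with the smallest p. A few genes of the marker lists are not reported here by name. Exon lengths and overlaps came from a GRCm38 annotation, not the build of the alignment, and promoter windows from RefSeq on GRCm38.p6. Reads carry no molecular identifiers. With 3 against 3 libraries an exact two-sided permutation test cannot go below 0.10, so none is given.

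Libraries share numbers 1 to 3 across groups in their titles. After removing group means, libraries of the same number deviated together, with correlations from 0.00575 to 0.667, over 0.1 in 11 of 12 pairs. The exception was a pair of the LPS comparison in Runx1KO, so the numbers were taken, from the data and not from the labels, to pair the libraries in the other 3 comparisons. No 2 libraries of a group agreed within sampling noise.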

Additional observations from a re-analysis of the deposited data

How the results depend on the processing

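Across the edgeR, DESeq2 and limma-voom fits, other scalings, no filter, the compared groups alone, the library-number block and left-out libraries, 0 members were called in any of the 5 comparisons, and the smallest adjusted p of a member in any of them was 0.0559 (DESeq2, Runx1KO against Control with LPS). Between the genotypes, the number of members with a negative value, an outcome added after seeing the data, stayed between 35 and 39 of 41 with vehicle and between 34 and 40 with LPS. The member median ran from -0.52 to -0.24 with vehicle and from -0.60 to -0.19 with LPS when a library was left out, and reached -0.60 without Runx1KO LPS library 1. When a library was left out it ran from -0.09 to 0.09 for LPS in Control, from -0.18 to 0.14 for LPS in Runx1KO, and from -0.25 to 0.16 for the difference of the responses; the cause was not tested. With library size as the only scaling, the median for LPS in Control was -0.11 (0.01 with TMM), and the members with every Runx1KO library below every Control library with vehicle numbered 9 in place of 14, a count also added after seeing the data; with LPS that count was 9 in place of 10. With the library number as a block, the medians were -0.40 and -0.37 between the genotypes and 0 members were called; over all genes the calls went from 123 to 315 with vehicle and from 119 to 302 with LPS. The block changed no other call of a gene named here than those of Uhrf1, Ly6g, Fcnb and of the B lineage, megakaryocyte, and eosinophil, basophil and mast cell lists. Leaving out a library for the pathway genes named outside the 41, and the block for counts at an unadjusted p, were added after seeing the data. Over all genes, calls with vehicle were 364 by DESeq2 and from 1 to 70 with libraries left out, and with LPS 376 by DESeq2, 27 with the compared groups alone and from 3 to 135 with libraries left out. Depth limits the lowest members, such as Gins2, with 18 reads in a library.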
